A study of Mus musculus with 3 samples.

Results

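Chondrocytes of the articular type, marked by Cytl1, were followed in 3 droplet single-cell RNA libraries of mouse bone marrow niche cells. A cell was taken as one of them where it held at least 5 unique molecular identifiers (UMIs, 1 for each captured RNA molecule) of Cytl1, at least 3 UMIs of Chad, Cilp, Cilp2 and Crispld1 in sum, and none of Cdh5 or Ptprc. Candidates were the called barcodes: 1000 UMIs or more, 500 genes or more, and a mitochondrial share of UMIs below 10%. By this rule 497 of 16318 called barcodes were Cytl1 chondrocytes: 38 in the aGVHD library, 15 in the BMT library and 444 in the WT library. The rule reads measured values of its own genes, so the levels of those genes describe how the cells were chosen and are not results.

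Articular cartilage covers the joint ends of bones and is built by chondrocytes, which deposit type II collagen and the proteoglycan aggrecan under the control of the transcription factor Sox9. Cells of its superficial zone secrete lubricin, the product of Prg4, which keeps the joint surface smooth, and articular chondrocytes normally do not proceed to hypertrophy and mineralisation. Growth plate chondrocytes, the other cartilage of a long bone, pass through resting, proliferating and hypertrophic stages and express matrilins and, at the end, type X collagen. Cytl1 encodes a small secreted protein of cartilage, Chad the collagen-binding protein chondroadherin, Cilp and Cilp2 cartilage intermediate layer proteins, and Crispld1 a secreted protein of the cysteine-rich CAP family.

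All 3 libraries came from female CB6F1 mice, and each group had 1 library. The aGVHD (acute graft-versus-host disease) mice were irradiated with 2 doses of 4.0 Gy, received B6.SJL (CD45.1+) marrow cells 4 hours later and were given spleen cells of female C57BL/6 mice in addition. The BMT (bone marrow transplantation) mice had the same irradiation and marrow cells without the spleen cells, and the WT mice were untreated. Live stromal cells were sorted with Calcein AM and DAPI after depletion of cells stained for CD45, a lineage mix or CD71, so the cartilage cells are what this marrow preparation released and not a dissected joint. How many mice went into each library, and how long after transplantation they were taken, is not given in the sources used here. Each group being 1 library, no difference between groups has a test, and treatment cannot be told apart from library. Every interval below is a 95% interval of counting error alone.

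The libraries held 67439098 UMIs in aGVHD, 44219063 in BMT and 86575425 in WT, with median depths of called barcodes between 6932 and 7355 UMIs. Cytl1 chondrocytes had a median of 5584.5 UMIs in aGVHD, 9464 in BMT and 9549 in WT. Free RNA, estimated from haemoglobin and neutrophil granule genes, came to 16.0% of their UMIs in aGVHD, 0.315% in BMT and 8.86% in WT. The first and last of these rested on 2 aGVHD and 9 WT cells with over 10% haemoglobin UMIs, without which the estimates were 0.614% and 0.742%. Between 8 and 11 called barcodes were shared by each pair of libraries, and no Cytl1 chondrocyte barcode was a Cytl1 chondrocyte in more than 1 of them. Likely doublets numbered 2 of 38 in aGVHD (5.26%), 3 of 15 in BMT (20%) and 46 of 444 in WT (10.4%). Over all called barcodes the shares were 4.45%, 2.90% and 5.71% in the same order.

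The cartilage part of the label was checked on genes that the rule did not read. In WT, 91.2% of the cells held Col2a1 (type II collagen), 94.4% Acan (aggrecan), 99.8% Comp, a matrix protein that binds collagens, and 95.3% Sox9. At least 1 Col2a1 UMI was also held by 25.2% of WT endothelial cells and 35.7% of WT leukocytes. WT growth plate chondrocytes, defined further on, held Col2a1 and Acan too, at 36942 and 3948 CPM, so the articular part of the label was not checked here. The rule leaves out every barcode with a Ptprc or Cdh5 UMI, so the marker sums of leukocytes and endothelial cells follow in part from it: leukocyte markers summed to 11.2, 9.63 and 22.4 CPM (UMIs of a gene per 1e+06 UMIs of the class) in aGVHD, BMT and WT, and endothelial markers to 33.5, 38.5 and 35.9 CPM. Osteoblast markers summed to 335 CPM in aGVHD, 7591 in BMT and 6864 in WT, and fibroblast markers to 1128, 494 and 3823 CPM. At least 50 UMIs of the osteocalcin genes Bglap and Bglap2 were held by 0 of 38 cells in aGVHD, 3 of 15 in BMT and 12 of 444 in WT. The cells therefore carried the general cartilage genes, and whether osteoblast RNA in a minority of them was their own was not tested.

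The genes of the rule showed how wide the choice was. Cytl1 (chr5:37735519-37739820 in GRCm38, plus strand, protein-coding) stood at 20504 CPM in aGVHD, 3948 in BMT and 12967 in WT. Its level over single WT cells ranged between 5 and 983 UMIs, with a median of 75.5. Chad (chr11:94565047-94569127) stood at 6620 CPM in aGVHD, 3614 in BMT and 5531 in WT. Cilp (chr9:65265180-65280605) stood at 5292, 706 and 2509 CPM in the same order, Cilp2 at 428, 128 and 675, and Crispld1 (chr1:17727045-17766344) at 361, 847 and 1127. In WT, Chad was detected in 90.1% of the cells, Crispld1 in 87.8%, Cilp2 in 78.8% and Cilp in 67.6%. At an equal depth of 1000 UMIs per cell, those shares were 77.5%, 53.2%, 41.2% and 54.3%.

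Cytl1 RNA was also found outside the class. In WT, 59 of 369 endothelial cells (16.0%, median depth 4993 UMIs) and 19 of 196 leukocytes (9.69%, median depth 10941.5 UMIs) held at least 1 Cytl1 UMI, and the empty droplets of that library held 1346 CPM of Cytl1. In aGVHD 6 of 726 endothelial cells and in BMT 8 of 710 held a Cytl1 UMI. At least 5 Cytl1 UMIs, the minimum of the rule, were held by 11 endothelial cells in WT, 2 in BMT and 0 in aGVHD. The same minimum was reached by 1 of the 196 WT leukocytes. At the limit of the rule in WT, 37 cells had 5 to 7 Cytl1 UMIs and 101 cells with 2 to 4 were left out. Prg4 stood at 6397 CPM in the 37 inside and 802 CPM in the 101 outside, and Col2a1 at 36166 and 37670 CPM. Another 8 WT cells were left out for holding fewer than 3 UMIs of the second genes, against 4 cells with 3 to 5 that were kept, and 13 WT cells and 3 BMT cells were left out for a Cdh5 or Ptprc UMI.

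Cytl1 chondrocytes were a far smaller share of both transplanted libraries than of WT. They made up 0.682% of called barcodes in aGVHD (0.483 to 0.936%), 0.414% in BMT (0.232 to 0.682%) and 6.23% in WT (5.68 to 6.81%). The aGVHD share was 9.13-fold lower than the WT share (6.56 to 12.7), and the BMT share 15-fold lower (9.0 to 25.1). The ratio of aGVHD to BMT was 1.65 with an interval of 0.908 to 2.99, which includes 1. A share also moves with every other cell the sort let through, so 2 narrower pools were used as denominators. The classes set beside these cells further on were also smaller shares of the transplanted libraries: growth plate chondrocytes made up 0.0539%, 1.22% and 5.75% of called barcodes in aGVHD, BMT and WT, Prg4 lining-like fibroblasts 2.08%, 5.11% and 14.4%, and tendon-like fibroblasts 0.233%, 0.911% and 2.26%.

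Within barcodes that held at least 10 UMIs of stromal genes (Col1a2, Col3a1, Col2a1, Acan, Lepr and Cxcl12) and no Cdh5 or Ptprc, the cells were 31 of 625 in aGVHD (4.96%), 15 of 1136 in BMT (1.32%) and 425 of 4589 in WT (9.26%). On that base the aGVHD share was 1.87-fold lower than WT (1.31 to 2.66) and 3.76-fold higher than BMT (2.04 to 6.90), and the BMT share was 7.01-fold lower than WT (4.21 to 11.7). The other base was Cytl1 chondrocytes plus growth plate chondrocytes as defined further on. It did not hold cartilage cells alone, since 100 of the 410 WT growth plate cells held at least 50 UMIs of Bglap and Bglap2. On it the Cytl1 chondrocytes were 38 of 41 in aGVHD (92.7%), 15 of 59 in BMT (25.4%) and 444 of 854 in WT (52.0%). The direction of aGVHD against WT turned on this base, to 1.78-fold higher (1.60 to 1.98). Growth plate chondrocytes numbered 3 in aGVHD, 44 in BMT and 410 in WT. Both cartilage classes were thus scarce in aGVHD, and in BMT the growth plate class outnumbered the Cytl1 class.

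**Figure D1:**
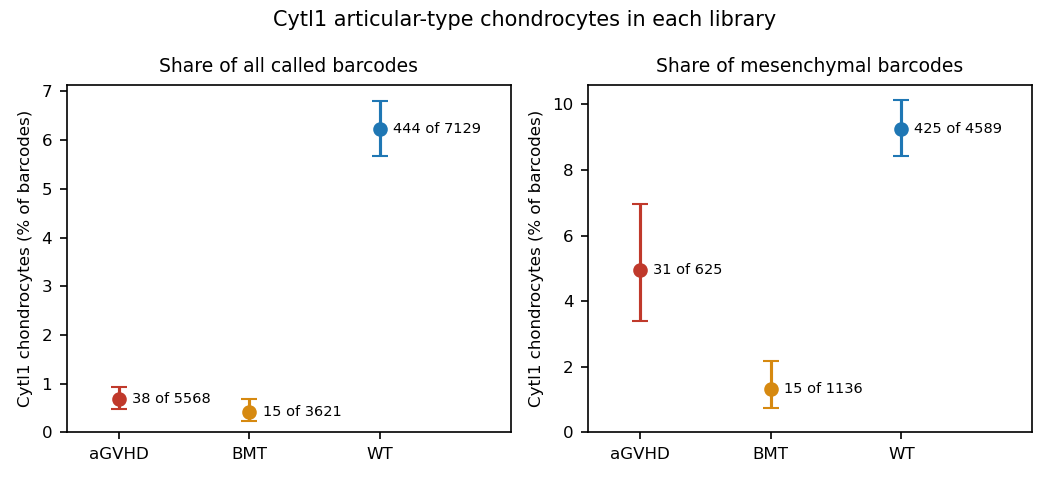
Share of Cytl1 chondrocytes in percent of called barcodes (left) and in percent of mesenchymal barcodes (right) for the aGVHD, BMT and WT libraries; points are shares and bars exact 95% intervals of counting error. The WT share is the highest in both panels, at 6.23% and 9.26%, and aGVHD stands above BMT at 4.96% against 1.32% on the right.

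Taken in sum, genes of cartilage matrix and lubricin were among the highest of the WT cells. The 20 highest genes, apart from ribosomal, mitochondrial and haemoglobin genes, took 21.4% of all UMIs. They were led by the nuclear RNA Malat1 (27885 CPM) and by Sparc, a collagen-binding matrix protein (27828 CPM). Prg4 (21933 CPM, chr1:150449412-150466165, minus strand) and Col2a1 (21307 CPM) followed at nearly equal levels in the sum, though not in the same cells. In cells with at least 3 Prg4 UMIs they stood at 36131 and 7558 CPM, and in cells without Prg4 at 0 and 43615 CPM. Next stood Mgp, the matrix protein that inhibits calcification (18830 CPM), Cst3, the protease inhibitor cystatin C (14415 CPM), Cytl1, and the small proteoglycan decorin, Dcn (10092 CPM). 1500015O10Rik, now named Ecrg4, stood at 7992 CPM and 3110079O15Rik, the cartilage proteoglycan gene Snorc, at 5510 CPM. Comp stood at 5177 CPM, Ibsp, which encodes bone sialoprotein, at 4610, fibronectin Fn1 at 4535, the type XI collagen gene Col11a1 at 4023, clusterin Clu at 3831 and the growth factor gene Ctgf at 3185. The housekeeping genes Fth1, Tpt1 and Eef1a1, with 5159, 5022 and 3672 CPM, completed the list with Chad.

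The rest of the cartilage set was present at lower levels. Acan stood at 2659 CPM, the link protein gene Hapln1 at 2246, Col9a1, Col9a2 and Col9a3 at 1343, 1242 and 1772, and Col11a2 at 1717. Sox9 stood at 1270 CPM, and its partners Sox5 and Sox6 at 214 and 83.4. Gdf5, a joint-forming growth factor of the embryo, was near absence with 18 UMIs over all 444 cells (3.44 CPM), and the division marker Mki67 stood at 31.7 CPM, below its 77.7 CPM in empty droplets. Col10a1, the collagen of hypertrophic cartilage, stood at 3068 CPM, but 49 of 444 cells (11%) held any and 25 held at least 10 UMIs. Its high sum came from a small number of cells, in contrast to Acan or Comp.

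The 444 WT cells were a range and not a uniform type. At least 3 Prg4 UMIs were held by 323 cells (72.7%), 1 or 2 by 40 cells and none by 81 cells (18.2%). The growth plate rule (at least 5 Col2a1 UMIs and at least 3 of Matn1, Matn3, Col10a1, Ihh and Pth1r in sum) was also met by 154 of the 444. Of the 81 cells without Prg4, 80 met the growth plate genes, whereas 284 of the 323 cells with at least 3 Prg4 UMIs did not. Median depths were 8165 UMIs in the cells with at least 3 Prg4 UMIs and 15860 in those without Prg4.

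**Figure D2:**
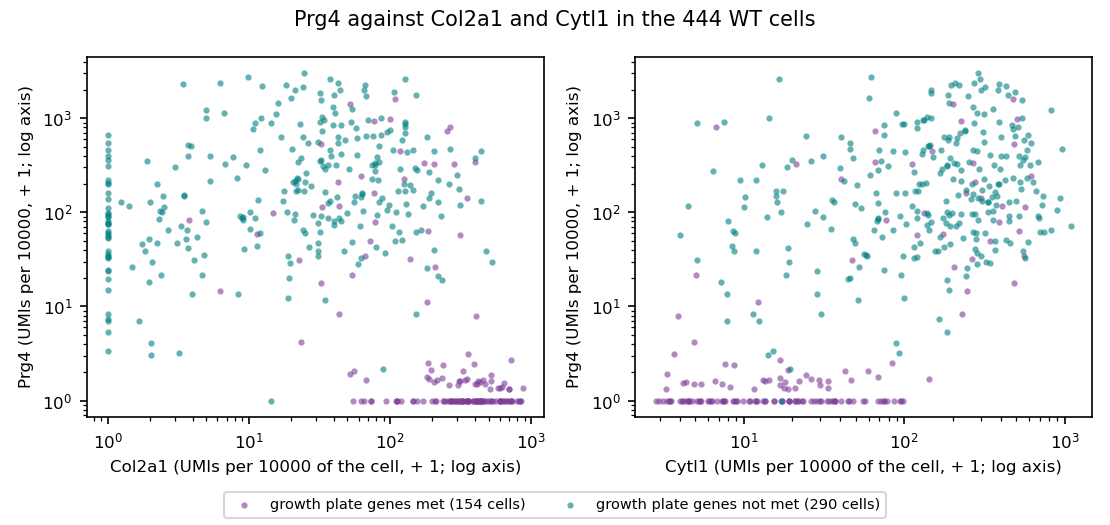
Prg4 against Col2a1 (left) and against Cytl1 (right) in each of the 444 WT cells, in UMIs per 10000 of the cell plus 1, both axes logarithmic; colour marks the 154 cells that met the growth plate genes and the 290 that did not. Cells without Prg4 lie at the high end of Col2a1 and the low end of Cytl1, and 80 of these 81 cells met the growth plate genes.

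Between these ends of the range, genes were compared by a rule of size and not by a test. A gene was counted as higher or lower where both sides together held at least 50 UMIs, the CPM differed at least 2-fold, the interval of the ratio excluded 1, and the higher side stood at least 2-fold above empty droplets. Cells with at least 3 Prg4 UMIs had 344 higher genes (4.8% of 7171 measured) and 351 lower genes (4.89%) than cells without, and the median log2 ratio over all measured genes was 0.10. Depth and the Prg4 choice itself are shared by all of these values, and the split was made on the same cells.

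Among the higher genes, Msmp, which encodes a small secreted protein (chr4:43583216-43584494, minus strand), stood at 3598 CPM in cells with at least 3 Prg4 UMIs and 4.42 CPM in cells without, a ratio of 814 (374 to 2219). Only 90 of the 444 WT cells held Msmp, and 3 of them held 6930 of its 11429 UMIs (60.6%). Without those 3 cells, an alternative chosen after seeing the data, the ratio was 322 (148 to 879), and the level of 1424 CPM no longer stood 2-fold above the 809 CPM of WT empty droplets, so Msmp no longer passed the rule of size. Gas1, a membrane co-receptor of hedgehog signalling, stood at 1623 against 7.36 CPM (220-fold), the secreted angiopoietin-like gene Angptl7 at 1060 against 5.15 CPM (206-fold), and Clu at 6253 against 93.5 CPM (66.9-fold). The proteoglycan versican, Vcan, was at least 100.1-fold higher and the neuropeptide gene Npy at least 95.4-fold higher, both with no UMI in the cells without Prg4. Abi3bp, a matrix-binding protein, was 36.0-fold higher, the extracellular superoxide dismutase Sod3 26.8-fold and Dcn 18.1-fold. Of 24 measured genes in the articular and superficial zone list, 20 were at least 1.5-fold higher and 14 passed the rule of size, with a median log2 ratio of 2.11, against 24.5% of all measured genes higher at that fold. All 11 measured fibroblast markers were at least 1.5-fold higher too, with a median log2 ratio of 5.38, though none passed the rule of size since their levels did not clear those of empty droplets. The part of fibroblast RNA in the Prg4 end was not tested.

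The genes of the rule are given along the range as a description alone, since the cells were chosen by them. Cytl1 stood at 20117 CPM in cells with at least 3 Prg4 UMIs and 1787 CPM in cells without (11.3-fold), and Cilp at 4057 against 33.1 CPM (122-fold). Chad stood at 6233 against 4383 CPM (1.42-fold). Over the 444 cells thinned to 1000 UMIs, Spearman's rho between Col2a1 and Prg4, which the rule did not read, was -0.410. It is a correlation across cells of 1 library that share depth and free RNA, and it carries no p.

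The cells without Prg4 held the fuller type II collagen matrix. Col2a1 stood at 7558 CPM in cells with at least 3 Prg4 UMIs and 43615 in cells without (5.77-fold lower), Col9a1 at 247 against 3160 CPM (12.8-fold lower), and Acan at 1456 against 4568 CPM (3.14-fold lower). C1qtnf3, which encodes a secreted C1q-domain protein of cartilage, was 77.1-fold lower with Prg4, the secreted cytokine gene Il17b 47.9-fold, the small proteoglycan gene Epyc of growth cartilage 25.0-fold, the pyrophosphatase gene Ppa1 22.2-fold, and Ucma, which encodes a matrix protein of growth plate and other cartilage, 3.43-fold. Mgp was also lower with Prg4, at 11273 against 30701 CPM. The serine protease gene Prss34 was at least 92.7-fold lower, with no UMI in cells with at least 3 Prg4 UMIs and 119 UMIs in cells without. Whether that RNA was the cells' own was not tested. Of 23 measured genes of cartilage collagens and core matrix, 19 were at least 1.5-fold lower and 18 passed the rule of size, with a median log2 ratio of -2.07, against 13.2% of all measured genes lower at that fold. Ucma and Mgp shared the side of Col2a1. In the hypertrophic and mineralising list, 10 of 18 were lower and 5 higher (median log2 ratio -0.88).

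Growth plate chondrocytes were the other cartilage class in the same library: 410 WT cells that were not Cytl1 chondrocytes and met the growth plate rule. Against them, Cytl1 chondrocytes had 228 higher genes (2.28% of 10011 measured) and 175 lower genes (1.75%) by the rule of size, and the median log2 ratio over all measured genes was 0.10. The Cytl1 side kept its 154 cells that also met the growth plate rule, which held 50.8% of its UMIs. Without them, an alternative chosen after seeing the data, 431 genes were higher and 491 lower. Ratios and list counts against this class include these cells unless stated. The growth plate class carried osteoblast RNA: 100 of its 410 cells (24.4%) held at least 50 UMIs of Bglap and Bglap2, and Bglap stood at 394 CPM in Cytl1 chondrocytes and 20434 CPM in the class. Each ratio was therefore also taken against 292 cells of the class low in osteoblast genes: those with more UMIs of Col2a1 than of Col1a1, Bglap and Bglap2 in sum, and at least 3 of Matn1, Matn3, Col10a1 and Ihh. That restriction was chosen after seeing the data. A ratio or count to growth plate chondrocytes given below without naming the restricted class is against the whole class, osteoblast RNA included. It left osteoblast RNA in part: Bglap stood at 716 CPM there, and 23 of the 292 cells (7.88%) held at least 50 UMIs of Bglap and Bglap2, against 12 of the 444 Cytl1 chondrocytes. That comparison gave 212 higher (2.23% of 9488) and 194 lower genes (2.04%), and at 1.5-fold 17.3% of the measured genes were higher and 7.79% lower.

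The 12 highest genes were led by Msmp, Prg4 and Npy. Msmp stood at 2185 CPM in Cytl1 chondrocytes and 3.68 CPM in the growth plate class, a ratio of 594 (416 to 880) that was also 594 against the restricted class. Without the 3 WT cells of most Msmp UMIs the ratio to the whole class was 235 (164 to 348) and Msmp, at 864 CPM, did not pass the rule of size. Prg4 stood at 21933 against 156 CPM, a ratio of 140 (133 to 148), or 127 against the restricted class. Npy stood at 132 against 0.614 CPM, a ratio of 215 (91.6 to 663), and Clu at 3831 against 216 CPM, a ratio of 17.7 (16.9 to 18.6). The BMP antagonist gene Chrdl2 was 45.7-fold higher, the glycine-cleaving enzyme gene Gldc 36.6-fold, the secreted protein gene Slurp1 24.6-fold, Vcan 16.6-fold, Gas1 16.1-fold and Abi3bp 11.4-fold. All of these ratios stayed above 10 against the restricted class. Casr, the calcium-sensing receptor gene, stood at 17.4 against 0.245 CPM, where the class held 2 UMIs and the ratio of 70.9 had an interval of 19.1 to 594. Htra4 and Serpina1e completed the 12 highest at 45.2-fold and 27.2-fold. Htra4 rested on 3 UMIs in the class (15 to 223), and Serpina1e had 65.0% of its UMIs in 1 of the Cytl1 chondrocytes and belongs to a family of near-identical copies whose reads cannot be assigned with certainty. The level of Prg4 in the growth plate class was far below the 2451 CPM of WT empty droplets.

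Of 27 measured genes in the articular and superficial zone list, 20 were at least 1.5-fold higher in Cytl1 chondrocytes and 2 lower, with a median log2 ratio of 1.27, against 15.3% of all measured genes higher and 6.85% lower at that fold. 13 of them passed the rule of size. Erg, a transcription factor gene of joint and articular cartilage, stood at 28.1 against 3.07 CPM (9.16-fold), Creb5, another transcription factor gene of the superficial zone, at 165 against 18.0 CPM (9.17-fold), and the homeobox gene Barx1 at 56.8 against 3.31 CPM (17.1-fold). These transcription factor genes were picked out after their values were seen. Sox9 stood at 1270 against 1189 CPM, a ratio of 1.07, and its ratio was below 1 against the restricted class, at 1.27-fold lower. The 24 measured cartilage transcription factors had 9 higher and 4 lower at 1.5-fold.

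The shared cartilage matrix was lower than in the growth plate class. Acan stood at 2659 against 3948 CPM (1.49-fold lower), Col9a1 at 1343 against 2994 CPM (2.23-fold lower), Col11a1 at 4023 against 7580 CPM (1.88-fold lower) and Hapln1 at 2246 against 3981 CPM (1.77-fold lower). Of 20 measured core matrix genes that no rule used, 9 were lower and 2 higher at 1.5-fold, against 6.85% of all measured genes lower and 15.3% higher. Against the restricted class, which was chosen for Col2a1, 15 of 20 were lower, against 7.79% of all measured genes. Panx3, a channel gene of prehypertrophic chondrocytes and osteoblasts, stood at 49.3 against 163 CPM (3.30-fold lower, or 4.21-fold against the restricted class). Runx2, which drives hypertrophy and bone formation, was 1.96-fold lower against the whole class. What part of that came from the osteoblast RNA of the class was not tested. Of 15 measured hypertrophic and mineralising genes, 11 were lower and 3 higher (median log2 ratio -1.03), to be read beside the same shares of all genes. Against the restricted class 5 were higher and 5 lower (median log2 ratio -0.45), so this count differed between the whole and the restricted class. Ibsp was 1.61-fold lower against the whole class and 1.09-fold higher against the restricted one. Col10a1, which the growth plate rule reads, was 5.77-fold higher, and was lower by 5.06 on the log2 scale in the 290 Cytl1 chondrocytes that did not meet the growth plate genes.

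The 12 lowest genes against the whole class included genes of osteoblasts, and 6 of them had too few UMIs against the restricted class to be measured. The 12 were Ifitm5 (101-fold lower), Car3 (98.2-fold), Bglap2 (64.3-fold), Slc36a2 (61.6-fold), Bglap (51.8-fold), Lipc (41.7-fold), Bglap3 (40.6-fold), Insc (39.2-fold), Chn1 (35.5-fold), Fat3 (34.4-fold), Entpd3 (34.0-fold) and Mlip (25.8-fold). Car3, Fat3, Lipc, Mlip, Entpd3 and Slc36a2 were those that turned, each on at most 24 UMIs in either class there. Ifitm5 and the Bglap genes are known from bone-forming osteoblasts. Of the 11 measured osteoblast markers all were lower, with a median log2 ratio of -3.89, against 0.01 over 8 markers with the restricted class. The 12 lowest against the restricted class were Ppa1, Il17b, Ptcra, C1qtnf3, Dlk2, Pcp4, Panx3, Epyc, Fkbp11, Car12, Pak3 and Fads2. Among them stood Dlk2 (11-fold lower, on 4 UMIs in the Cytl1 chondrocytes), Ptcra (3.82 against 27.2 CPM, 7.10-fold), Il17b (32.3 against 176 CPM, 5.44-fold lower), Ppa1 (711 against 3838 CPM, 5.40-fold), C1qtnf3 (105 against 510 CPM, 4.86-fold) and Epyc (101 against 391 CPM, 3.89-fold). Il17b, Ppa1, C1qtnf3 and Epyc were also on the side without Prg4 within the WT Cytl1 chondrocytes.

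**Figure D3:**
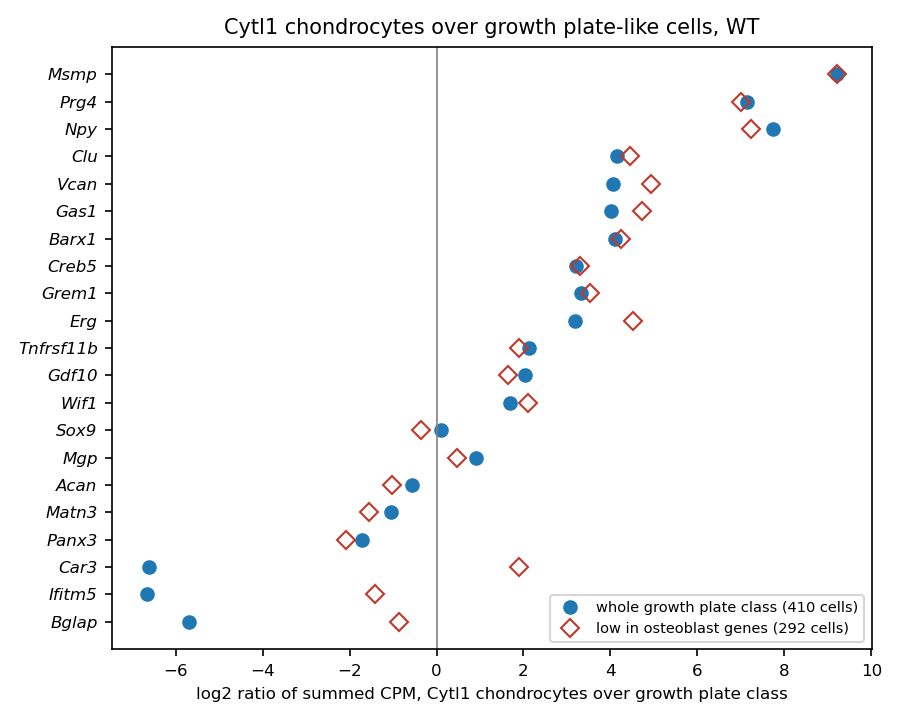
Log2 ratio of CPM, Cytl1 chondrocytes over growth plate chondrocytes in WT, for 21 genes, over the whole class of 410 cells and over its 292 cells low in osteoblast genes. Msmp, Npy and Prg4 stand far to the right over both versions, with 60.6% of the Msmp UMIs in 3 cells, Acan and Panx3 to the left, and Bglap moves towards 0 over the restricted class.

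Of 30 measured genes of BMP, TGF-beta and GDF signalling, ligands, receptors, antagonists and targets together, 18 were at least 1.5-fold higher than in the growth plate class and 3 lower, against 15.3% and 6.85% of all measured genes, and 6 passed the rule of size upward. Among ligands, Gdf10 stood at 266 against 65.0 CPM (4.09-fold) and Bmp2 at 117 against 40.0 CPM (2.92-fold). The BMP antagonist Grem1 stood at 151 against 15 CPM (10.1-fold). Id2, a BMP target, stood at 769 against 463 CPM, Id1 at 346 against 230 CPM and Id3 at 656 against 688 CPM. These targets thus differed less than the ligands and the antagonist named here. This paragraph and the next give values against the whole class, osteoblast RNA included.

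In the FGF and IGF list, 10 of 18 were higher and none lower at 1.5-fold, against the same 15.3% and 6.85% of all measured genes, which also stand beside the Wnt and hedgehog counts. The ligand Fgf2 stood at 59.3 against 15.8 CPM (3.74-fold), and the binding protein Igfbp7 at 2006 against 901 CPM (2.23-fold). Fgfr1 stood at 219 against 215 CPM. In the Wnt list, 8 of 19 were higher and 6 lower: the secreted inhibitors Wif1 and Frzb stood at 697 against 215 CPM (3.25-fold) and 136 against 44.4 CPM (3.05-fold), and the target Wisp1 at 36.5 against 156 CPM. Tnfrsf11b, the decoy receptor that restrains osteoclast formation, stood at 432 against 98.8 CPM (4.38-fold). Chst3, a chondroitin sulfotransferase, stood at 57.0 against 7.12 CPM (8.0-fold). In the hedgehog and PTHrP list 2 of 7 were higher and none lower: Pthlh, the PTHrP ligand, stood at 29.4 against 9.45 CPM and the hedgehog target Ptch1 at 125 against 149 CPM.

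Prg4 lining-like fibroblasts, 1029 WT cells with at least 5 UMIs of Prg4 and of Col1a2 plus Col3a1 in neither cartilage class, shared lubricin with the Cytl1 chondrocytes but not the cartilage matrix. Cytl1 chondrocytes had 499 higher genes (4.57% of 10922 measured) and 873 lower genes (7.99%), and the median log2 ratio over all measured genes was -0.22. Prg4, which this class was chosen by, stood at 21933 against 16345 CPM. Of 20 measured core matrix genes 16 were at least 1.5-fold higher (median log2 ratio 4.36), against 11.3% of all measured genes. Col9a1 stood at 1343 against 6.93 CPM (194-fold), Lect1, the anti-angiogenic chondromodulin, at 1219 against 6.93 CPM (176-fold), the small secreted cartilage protein Mia at 1629 against 9.78 CPM (166-fold), Acan at 2659 against 118 CPM (22.6-fold) and Sox9 at 1270 against 177 CPM (7.16-fold). The protease inhibitor genes Serpina1a and Serpina1b stood at 509 against 0.519 CPM and 438 against 0.173 CPM, the second of these on 2 UMIs in the fibroblasts, and Serpina1d was 832-fold higher, also on 2 UMIs (229 to 6879).

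All 11 measured fibroblast markers and 9 of 11 tendon markers were lower in Cytl1 chondrocytes than in the lining-like cells, with median log2 ratios of -3.31 and -2.21, and 11 of 16 matrix proteases were lower (-1.68). Among all measured genes 28.2% were lower at that fold. Krtdap was at least 111-fold lower and S100g at least 48.0-fold lower, with no UMI in the Cytl1 chondrocytes. Fgl2, a secreted fibrinogen-like protein, stood at 12.2 against 424 CPM (34.7-fold lower), Chodl was 43.8-fold lower, Pla1a 29.7-fold, and Scg3 94.3-fold (32.1 to 459) on 3 UMIs in the Cytl1 chondrocytes. The articular and superficial zone list had 12 higher and 11 lower of 26, against 11.3% of all measured genes higher and 28.2% lower. Its genes stood on both sides, and the higher part lay further above the share of all measured genes.

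Tnmd Thbs4 tendon-like fibroblasts, 161 WT cells with at least 2 UMIs of each of those genes and outside the other classes, gave the same order for the core matrix. There were 501 higher (5.68% of 8813 measured) and 639 lower genes (7.25%), with a median log2 ratio over all of -0.10. Of 20 core matrix genes 17 were at least 1.5-fold higher, against 15.3% of all measured genes, with a median log2 ratio of 4.08. 3110079O15Rik (Snorc) stood at 5510 against 4.08 CPM (1349-fold), Scrg1, a secreted protein of mesenchymal and cartilage cells, at 998 against 2.04 CPM (489-fold), Msmp at 2185 against 4.60 CPM (476-fold, or 188-fold and not past the rule of size without its 3 highest cells) and Col9a3 at 1772 against 4.08 CPM (434-fold). Mfi2, the melanotransferrin gene, was at least 326-fold higher and Serpina1b at least 286-fold higher, with no UMI in the tendon-like cells. On the lower side, 8 of 9 tendon markers (median log2 ratio -3.72) and 10 of 12 fibrous collagens (median log2 ratio -1.28) were lower, against 22.8% of all measured genes. Myostatin, Mstn, stood at 0.382 CPM (2 UMIs) against 185 CPM, a 485-fold lower level (133 to 4018), and the Wnt modulator gene Sfrp2 at 13.8 against 769 CPM (55.9-fold lower). Chodl (121-fold), Ecscr (116-fold), Mfap4, a microfibril protein gene (58.8-fold), and Slpi (56.2-fold) were also lower.

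**Figure D4:**
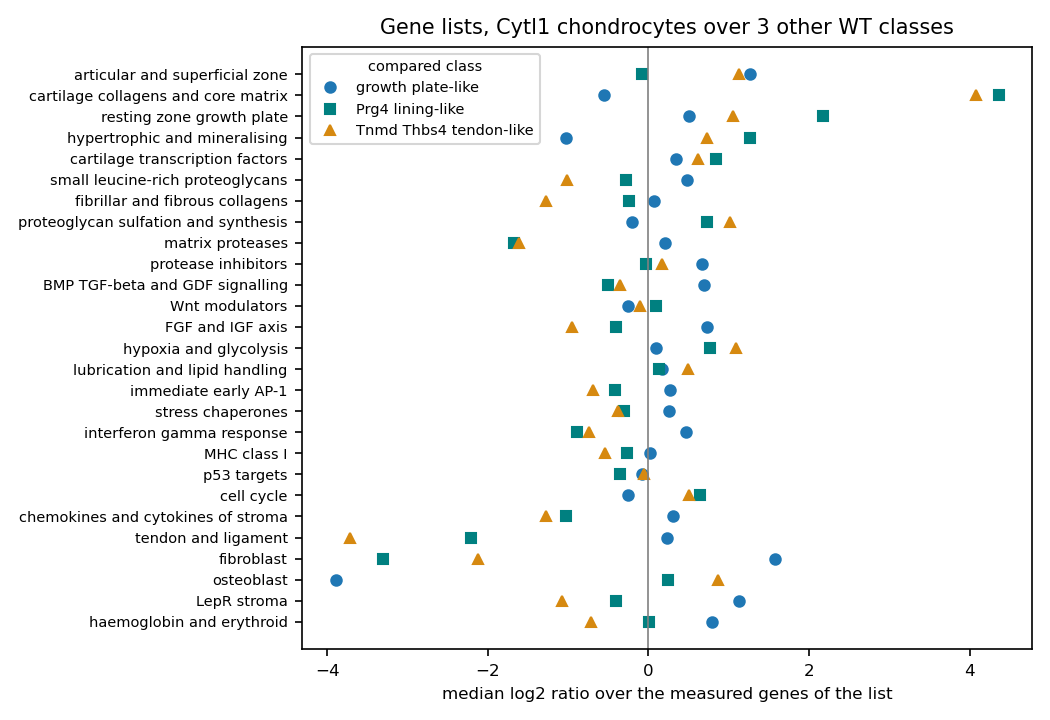
Median log2 ratio of CPM of each of 27 gene lists, Cytl1 chondrocytes over growth plate chondrocytes, over Prg4 lining-like fibroblasts and over tendon-like fibroblasts, all in WT. Core matrix genes stand at 4.36 and 4.08 over the fibroblast classes and at -0.56 over growth plate chondrocytes, and the osteoblast list is the lowest over growth plate chondrocytes at -3.89.

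The few Cytl1 chondrocytes of the transplanted libraries differed from those of WT in make-up before any single gene is considered. The growth plate genes were met by 9 of 38 cells in aGVHD, 8 of 15 in BMT and 154 of 444 in WT, and these cells held 39.8%, 83.9% and 50.8% of the UMIs. A single cell held 25.4% of all UMIs in BMT and 6.94% in aGVHD, against 1.02% in WT. At least 3 Prg4 UMIs were held by 26 of 38 cells in aGVHD, 8 of 15 in BMT and 323 of 444 in WT. Summed values are therefore set beside those of the cells without the growth plate genes (29 in aGVHD, 7 in BMT and 290 in WT), a restriction chosen after seeing the data, and beside the share of 1 cell where that share is large. This restriction reads Col2a1, Matn1, Matn3, Col10a1, Ihh and Pth1r, so it sets in part the levels of those genes and the counts of lists that hold them. No share over all measured genes is given for the restricted cells, and the shares for all cells do not stand in for it. Counts of genes and lists in the restricted cells are therefore a description alone.

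Between aGVHD and WT, 243 genes were higher (3.12% of 7799 measured) and 114 lower (1.46%), with a median log2 ratio over all of -0.11. Immediate early genes, the AP-1 transcription factors and their partners that respond within minutes to a stimulus, were the list with the most genes past the rule of size: 14 of 19, and 15 of 19 at least 1.5-fold higher against 16% of all measured genes, with a median log2 ratio of 1.24. Fos stood at 5165 CPM in aGVHD and 2501 in WT (2.06-fold), and without the 2 aGVHD and 9 WT cells over 10% haemoglobin at 4910 against 2574 CPM (1.91-fold), under the 2-fold limit. Egr1 stood at 4209 against 1712 CPM (2.46-fold), Jun at 2430 against 1144 CPM (2.12-fold) and Atf3 at 1314 against 381 CPM (3.45-fold). The median per cell of Fos was 4740 CPM in aGVHD and 2011 in WT, and the higher level was thus not carried by 1 cell. In the cells without the growth plate genes 14 of 19 were higher (median log2 ratio 1.08), with no share of all measured genes beside it.

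The MHC class I list had 7 of 8 genes at least 1.5-fold higher in aGVHD than in WT (median log2 ratio 2.0), against 16% of all measured genes. H2-D1 stood at 1779 against 521 CPM (3.41-fold), with per-cell medians of 1079 and 341 CPM, H2-K1 at 740 against 192 CPM (3.85-fold) and B2m at 1366 against 297 CPM (4.59-fold), of which 1 aGVHD cell held 43.6%. None of the 8 passed the rule of size, since empty droplets held 3032 CPM of H2-D1 in aGVHD and 1279 in WT, above the cells themselves. H2 genes are also close paralogs. In the interferon gamma list 7 of 8 were higher, against the same 16%, and none passed the rule of size. Its chemokine Cxcl9 had 86 UMIs in aGVHD, all of them from 1 cell. With free RNA subtracted, the median log2 ratio was 1.91 for the MHC class I list and 0.77 for the interferon gamma list, against 2.04 for the second of these as summed. That subtraction took 16.0% of the UMIs in aGVHD and 8.86% in WT as free RNA. Without the cells over 10% haemoglobin these estimates were 0.614% and 0.742%, so the subtraction can take too much. What part of the shift was free RNA was not tested.

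Part of the matrix was lower in aGVHD. Of 23 core matrix genes 13 were at least 1.5-fold lower and 2 higher, against 26.6% of all measured genes lower, and of 14 fibrous collagens 10 were lower. In the cells without the growth plate genes 9 of 19 and 9 of 14 were lower, with no share of all measured genes beside them. Msmp stood at 67.0 CPM (18 UMIs in 3 of 38 cells) in aGVHD and 2185 in WT, where 90 of 444 cells held it (32.6-fold lower, 20.6 to 55.1). A single aGVHD cell held 15 of the 18 UMIs. Without the 3 WT cells that held 60.6% of the WT UMIs, WT stood at 864 CPM, aGVHD was 12.9-fold lower (8.15 to 21.8) and Msmp did not pass the rule of size. Prg4 stood at 9690.2 against 21933 CPM (2.26-fold lower, and 2.41-fold lower without the growth plate genes). Ibsp was 16.1-fold lower, Nrep 19.6-fold, R3hdml at least 15.2-fold and Mup5 at least 11.1-fold, and Col10a1, which the growth plate rule reads, 20.1-fold. R3hdml and Mup5 had no UMI in aGVHD, and Mup5 was held by 20 of the 444 WT cells, with 35.2% of its UMIs in 1 of them.

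Mgp was on the other side, with 45217 CPM in aGVHD and 18830 in WT (2.40-fold) and 34829 against 10988 CPM in the cells without the growth plate genes (3.17-fold). Its median per cell was 31988 CPM in aGVHD and 9167 in WT. The 6 highest genes by interval were Serpina1c (22-fold), Oxnad1 (10.6-fold), the chemokine-scavenging receptor gene Ackr2 (7.89-fold), Mzt2 (6.16-fold), Serpina1d (4.65-fold) and Txnip (4.61-fold). A single aGVHD cell held 58.8% of the Txnip UMIs, 60.0% of the 15 Ackr2 UMIs and 67.7% of the 31 Mzt2 UMIs, and Serpina1 copies cannot be told apart with certainty.

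Between BMT and WT, 193 genes were higher (2.48% of 7789 measured) and 114 lower (1.46%), with a median log2 ratio over all of -0.07. In the cells without the growth plate genes 293 were higher and 24 lower. The core matrix list differed between these cell sets. In all cells 13 of 23 were at least 1.5-fold higher in BMT and 4 lower, against 14.5% of all measured genes higher. Without the growth plate genes 1 of 19 was higher and 6 lower, with no share of all measured genes beside them. Prg4 stood at 2985 CPM in BMT and 21933 in WT (7.35-fold lower), and at 18432 against 38752 CPM without the growth plate genes (2.10-fold lower). Msmp had 1 UMI in BMT, a level of 3.21 CPM against 2185 CPM in WT (interval of the ratio 122 to 26894-fold lower, and 48.3 to 10634-fold without the 3 highest WT cells, where it did not pass the rule of size). Angptl7 was 22.5-fold lower (7.29-fold lower without the growth plate genes). Npy was at least 13.7-fold lower and Mup5 at least 12.9-fold, with no UMI in BMT, and Serpina1d had 1 UMI. Of 25 articular and superficial zone genes 16 were lower and 2 higher, against 24.1% of all measured genes lower.

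Genes of the p53 response, which follows irradiation, stood higher in BMT. Of 16 measured, 14 were at least 1.5-fold higher, against 14.5% of all measured genes (median log2 ratio 1.09), and 3 passed the rule of size. Without the growth plate genes 4 of 8 were higher, with no share of all measured genes beside it. Cdkn1a, the cell cycle inhibitor p21, was held by 15 of 15 cells in BMT and 284 of 444 in WT, at 712 against 235 CPM (3.03-fold), with per-cell medians of 689 and 137 CPM. In aGVHD it stood at 688 CPM. There 7 of 16 genes of the list were at least 1.5-fold higher than in WT (median log2 ratio 0.39), against 16% of all measured genes. The rule of size was passed by 3 of the 16, against 3.12% of all measured genes. Mdm2, the p53 inhibitor that p53 induces, was 5.48-fold higher in BMT, with 43.4% of its BMT UMIs in 1 cell. Sfn (14-3-3 sigma) stood at 318 against 2.68 CPM, a ratio of 119, in 5 of 15 BMT cells and with 47.5% of its UMIs in 1 of them.

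The interferon gamma list had 11 of 12 genes at least 1.5-fold higher in BMT (median log2 ratio 3.91), against 14.5% of all measured genes. Of these, 1 passed the rule of size. The list summed to 2006 CPM in the BMT cells, below the 4607 CPM of BMT empty droplets. Its sum per cell had a median of 495 CPM and a maximum of 11366 CPM in BMT, against 164 and 2358 CPM in WT. The sums thus leaned on few BMT cells. Igtp, an interferon-induced GTPase gene, stood at 234 against 2.29 CPM (102-fold), in 5 of 15 cells with 63.0% of the UMIs in 1 cell, and 115 CPM in BMT empty droplets. All 8 MHC class I genes were higher (median log2 ratio 1.55, against the same 14.5% of all genes), none past the rule of size, and in the cells with at least 3 Prg4 UMIs that median was -0.20. Of H2-D1 in BMT, 55.9% came from 1 cell. Of 19 immediate early genes 8 were higher, to be read beside that same share. In the cells without the growth plate genes 14 were higher, with no share of all measured genes beside it. Fos was 1.95-fold higher over all cells and 4.11-fold in the cells without the growth plate genes, and Egr1 1.24-fold and 3.67-fold. Among the highest genes by interval, Fancc (12-fold) and Il17b (9.54-fold) had 88.6% and 87.5% of their BMT UMIs in 1 cell. Fam180a (6.77-fold, 56.2% in 1 cell) and Fgg (9.33-fold, all 25 UMIs in 1 cell) completed the 6.

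**Figure D5:**
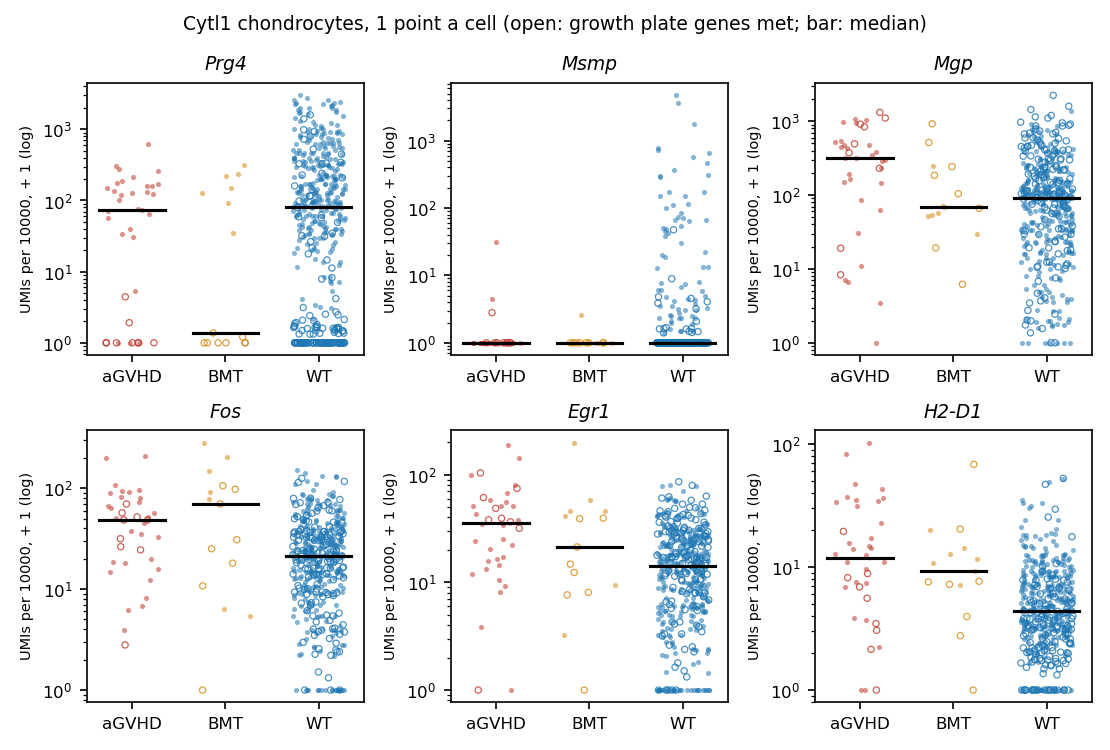
Level per cell of Prg4, Msmp, Mgp, Fos, Egr1 and H2-D1 in Cytl1 chondrocytes of aGVHD, BMT and WT, in UMIs per 10000 of the cell plus 1 on a logarithmic axis; each point is a cell, open points met the growth plate genes and bars are medians over cells. Fos, Egr1 and H2-D1 have higher medians in aGVHD and BMT than in WT, and Msmp was detected in 3, 1 and 90 cells.

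Between aGVHD and BMT, with 38 and 15 cells, 1449 genes were measured, of which 100 were higher (6.9%) and 114 lower (7.87%), with a median log2 ratio over all of -0.11. In the cells without the growth plate genes, 29 and 7 cells, the counts were 29 and 31. Core matrix genes were lower in aGVHD, 18 of 20 against 24.2% of all measured genes (median log2 ratio -1.77), and without the growth plate genes that median was 0.16. Col2a1 stood at 3859 CPM in aGVHD and 48800 in BMT (12.6-fold lower), where 1 BMT cell held 46.5% of the UMIs, and it was 1.79-fold lower in the cells without the growth plate genes, a choice that reads Col2a1 itself. Col9a1 was 15.5-fold lower, Ibsp 23.6-fold, Col12a1 17.5-fold, Fam180a 24.3-fold, and M1ap, on 3 UMIs in aGVHD, 42.6-fold. A single BMT cell held 90.6% of the BMT UMIs of Ibsp, 86.5% of M1ap, 56.2% of Fam180a and 56.1% of Col12a1. Without the growth plate genes Ibsp and Col12a1 stood higher in aGVHD, by 1.53 and 1.40 on the log2 scale.

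Higher in aGVHD than in BMT were the Serpina1 copies, with Serpina1a at 1667 against 51.4 CPM (11 of 38 and 3 of 15 cells) and Serpina1b at 1600 against 38.5 CPM (9 of 38 and 2 of 15 cells). Serpina1c was at least 52.9-fold higher, with no UMI in BMT, and Serpina1d stood at 670 CPM against 1 UMI. Angptl7 was 13.7-fold higher and Txnip 10.03-fold. In the articular and superficial zone list 10 of 17 were higher and 2 lower, against 17.7% of all measured genes higher, with a median log2 ratio of 1.02 that was 0.16 without the growth plate genes. These 3 comparisons share libraries, and their values are given side by side without a measure of overlap.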

How the data were processed

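Per the labels' protocols, sorted marrow niche cells of 3 groups gave 1 library each. The authors deposited raw counts: whole numbers of UMIs per gene and barcode, empty droplets included, written by Cell Ranger 3.1.0 per the file headers. The submitters' processing notes name Cell Ranger, Seurat and mm10. No normalisation is in these deposited counts.

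The Cytl1 chondrocytes, the comparison classes and the gene lists were chosen with earlier results of these data known. Cells were called as in the report. Likely doublets were taken as the top Scrublet scores, 0.8% for every 1000 barcodes called (248, 105 and 407 in aGVHD, BMT and WT), and were kept in the main values and left out in an alternative; Scrublet's own threshold marked 88, 26 and 191. UMIs were summed per class and library and scaled to CPM. Shares carry Clopper-Pearson intervals, levels exact Poisson intervals, and ratios of levels exact conditional binomial intervals, all at 95% and for counting error only; ratios of shares carry a normal approximation on the log scale. A group with no UMI was set to 3 UMIs for a lower bound. Empty droplets were barcodes of at most 100 UMIs. Detection was also computed on cells thinned to 1000 UMIs. No p-value was computed, since each group has 1 library.

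Named genes were the genes of the rule, the 20 highest in WT, the 12 highest and 12 lowest against growth plate chondrocytes and the 6 highest and 6 lowest elsewhere by the interval bound nearest to 1, and up to 6 genes per list by UMIs. The genes named for the cells with and without Prg4, the per-cell values and the other genes outside this rule, such as Erg, Creb5, Barx1 and Gdf5, were picked after their values were seen. The interval and the rule of size were tested on simulated data with known ratios. Coordinates are from GENCODE vM21 on GRCm38. Tools were Python 3.11.15, numpy 2.4.6, scipy 1.17.1, pandas 2.3.3, scanpy 1.11.5, matplotlib 3.10.9, R 4.3.3 and edgeR 4.0.16, the last for trimmed mean scaling factors alone.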

Additional observations from a re-analysis of the deposited data

How the results depend on the processing

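No paired analysis was possible because each group has 1 library and no result comes from a test. Of the alternatives named at the start, leaving out likely doublets, a Cytl1 minimum of 10, the mesenchymal pool and the cartilage pool moved the ratio of shares of aGVHD to BMT to 1.98, 1.95, 3.76 and 3.65, with intervals above 1. The cartilage pool turned aGVHD over WT to 1.78. The WT share was 6.93% with a Cytl1 minimum of 3 and 5.43% with 10. A mean of cells gave 294 genes lower than in growth plate chondrocytes, and gene minimums of 20 and 100 UMIs gave 204 higher and 206 lower, and 53 and 63, between aGVHD and BMT. Trimmed mean scaling shifted all log2 ratios by 0.21 against the lining-like and 0.10 against the tendon-like cells.

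The other alternatives were chosen after seeing the data. Without the cells that met the growth plate genes there were 431 higher and 491 lower genes against growth plate chondrocytes, 316 higher against the lining-like cells, 293 and 24 in BMT against WT, 29 and 31 in aGVHD against BMT, and 70 lower in aGVHD against WT. The shares were 0.193% in BMT and 4.07% in WT, with a ratio of aGVHD to BMT of 2.69. The log2 ratios that turned were Col10a1 against growth plate chondrocytes (-5.06) and, in aGVHD against BMT, Ibsp (1.53), Col12a1 (1.40), the immediate early list (-0.059) and the core matrix list (0.16). With cells of at least 3 Prg4 UMIs alone there were 401 higher and 449 lower genes against growth plate chondrocytes, 301 higher in BMT against WT, 66 and 62 in aGVHD against BMT, and 73 lower in aGVHD against WT; shares were 0.467%, 0.221% and 4.53% in aGVHD, BMT and WT. MHC class I in BMT against WT turned to -0.20 and Ibsp in aGVHD against BMT to 2.69. Against the growth plate cells low in osteoblast genes, the turned values were Car3 (1.90), Fat3 (1.45), Lipc (0.54), Mlip (0.54), Slc36a2 (0.54), Entpd3 (2.30) and the osteoblast list (0.015). The cause of these shifts was not tested. Without cells over 10% haemoglobin, the log2 ratio of Fos in aGVHD against WT was 0.93 (1.91-fold), under the 2-fold limit. Without the 3 WT cells of most Msmp UMIs, Msmp kept its direction in every comparison where this was computed. It passed the rule of size in none of them. With 15 BMT and 38 aGVHD cells, depth limits both comparisons.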
